A study of Mus musculus with 9 samples.

Results

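The core circadian clock was followed in cultured mouse adult fibroblasts through 10 genes chosen by name: Arntl (also written Bmal1), Clock, Npas2, Per1, Per2, Per3, Cry1, Cry2, Nr1d1 and Dbp. All 10 were among the 53465 genes of the count table, and 9 of them were among the 14088 genes kept for testing. Npas2, a partner of BMAL1 that can stand in for CLOCK, had 3 to 10 counts per library and was not tested. The 3 groups were fibroblasts given DPI for 72 h, fibroblasts given DPI for 24 h, and control fibroblasts, with 3 libraries each. DPI is read here as diphenyleneiodonium, which blocks enzymes that carry flavins, because the series concerns the flavin cofactor FMN. Mouse strain, donor age and sex, the dose, and what the controls received were not stated in the labels.

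The clock is a feedback loop of transcription. BMAL1 pairs with CLOCK or NPAS2 and binds E-box elements to activate the Per, Cry, Nr1d1 and Dbp genes. PER and CRY proteins then return to the nucleus and repress that pair, while REV-ERBα, the product of Nr1d1, represses Arntl through RRE elements, where ROR proteins activate. DBP, TEF and HLF activate genes with D-box elements, and NFIL3 represses the same elements. Cryptochromes descend from flavoproteins and have a pocket that can hold FAD. Fibroblasts keep this loop running in culture, each cell with its own phase, unless serum, glucocorticoid or another cue aligns them. The hour at which each culture was collected, and whether the cultures had been aligned, were not stated, so the effect of clock phase or of time in culture cannot be told apart from that of the drug.

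Library totals ranged from 15292736 to 17923656 counts. Separate cultures per library are not stated in the labels, so each p-value reflects spread among libraries that may be technical replicates. The second control library was unlike the rest, with a chi-square per degree of freedom of 26.6 to 31.3 against the other controls, while the other pairs within a group had 3.62 to 7.68. Of 11 fibroblast markers 8 were tested. The list summed to 9263 to 10595 CPM at 72 h and 9971 to 10372 CPM at 24 h, against 5609 to 5838 CPM in controls. Against control, 4 of the 8 were higher at 72 h and 8 at 24 h, beside 4.73% and 12.4% of all genes. At 72 h against 24 h, 1 was higher and 4 lower, beside 10.1% and 11.2% of all genes. Those 4 weigh little in the sum. Over all libraries Dcn had 0.910 to 4.45 CPM, Col3a1 1.16 to 6.66, Pdgfra 6.66 to 17.0 and Pdgfrb 25.6 to 60.0. Col1a1 had at least 1592 CPM in every library, while Thy1, Lum and Fap, also on that list, had at most 2, 1 and 5 counts in any library. The marker lists of macrophages, endothelium, epithelium, fat and muscle each summed to at most 9.70 CPM in any library, with Adgre1, Krt5, Adipoq, Lep and Myog at 0 counts throughout. Epithelial markers summed to 6.43 to 6.66 CPM at 72 h and 1.34 to 1.58 CPM at 24 h, against 1.38 to 2.17 CPM in controls. Of 4 neural markers, Tubb3 alone was tested, and the list summed to 85.9 to 92.4 CPM at 72 h and 41.5 to 42.1 CPM at 24 h, against 50.5 to 64.1 CPM in controls, with Rbfox3 and Sox10 at 0 counts. The part of any of these lists in the results below was not tested. In bulk RNA, fewer cells of a type and less RNA per cell cannot be told apart.

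Dbp, Cry2, Per2 and Per1 were lower at 24 h than in controls, Arntl and Nr1d1 were higher, and Clock, Cry1 and Per3 did not pass. At 72 h the first 4 were again near the control level, while Arntl and Nr1d1 were still above it. The sizes were modest: Dbp reached 0.514 times the control level at 24 h, and Arntl 1.45 times the control level at 72 h. Levels are CPM, read counts scaled to a common library size after TMM normalization, and a gene passed at an adjusted p under 0.05 by the quasi-likelihood test of edgeR with Benjamini-Hochberg adjustment over all genes tested. At 24 h, 6 of the 9 passed, beside 24.7% of all genes tested (4 lower, beside 12.3%, and 2 higher, beside 12.4%). At 72 h, 2 of the 9 passed, beside 8.56% of all genes, both of them higher, beside 4.73%. No clock gene was lower at 72 h by edgeR, DESeq2 or limma voom at an adjusted p under 0.05, and 1 was lower at an unadjusted p under 0.05 by each of the 3 tools (Cry1 by edgeR). At 72 h against 24 h, 4 of the 9 passed, beside 21.3% of all genes, all of them higher, beside 10.1%. The median log2 change of the 9 was 0.10 at 72 h and -0.25 at 24 h against controls, where the medians of all genes were -0.0050 and -0.0056.

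**Figure D1:**
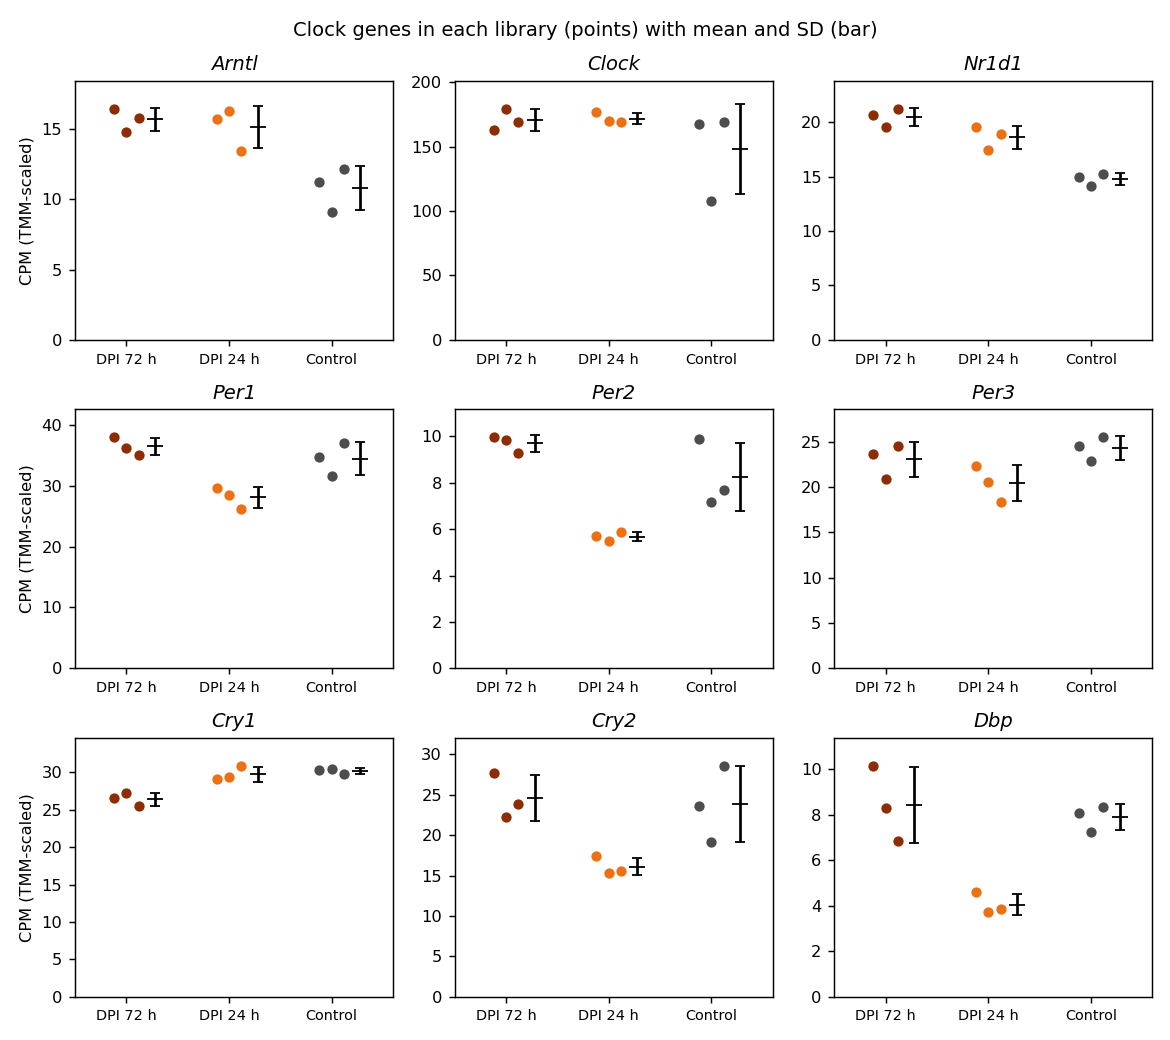
Level of each tested clock gene in CPM (vertical axis, from 0) in the 3 libraries of DPI 72 h, DPI 24 h and control (points), with mean and SD beside them. Dbp, Per1, Per2 and Cry2 are lowest at 24 h, with no overlap with the other groups, while Arntl and Nr1d1 lie above control in both DPI groups and Clock has 1 low control library.

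Promoter windows from RefSeq (GRCm38.p6, 250 bases before to 50 bases after each annotated start) were searched on both strands, because members of the loop are known to act through these elements. Of the 10 genes, 9 had 13 windows in all, and Per2 was not among them. The E-box was searched as CACGTG, the E'-box as CACGTT, the D-box as TTATGTAA or TTACGTAA, the RRE, an 11-base element, by name, the ROR core element as AGGTCA, and the cAMP response element as TGACGTCA. The RRE match contains an overlapping ROR core element. An E-box was present in 2 of the 13 windows, those of Per1 and Cry1, and in 7.15% of all 32851 windows. An E'-box was present in 3 of the 13, those of Cry1, Cry2 and Nr1d1, and in 4.68% of all windows. The D-box was present in 1 of the 13, that of Per3, and in 1.06% of all windows, and the RRE in 1 of the 13, that of Arntl, and in 0.384% of all windows. The ROR core element was present in 3 of the 13, from Arntl, Clock and Per1, and in 16.3% of all windows, and the cAMP response element in 0 of the 13 member windows and in 1.79% of all windows. The windows of Dbp and Npas2 held none of these letters. Mouse Dbp is known to have E-boxes within its introns, which these windows do not cover.

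The 250 bases upstream of the start are shown for the 5 members with an E-box, E'-box or D-box upstream, and for Ciart, a repressor of the same loop described further down, with those elements in capitals.
Per1 (chr11:69098699-69098948, plus strand): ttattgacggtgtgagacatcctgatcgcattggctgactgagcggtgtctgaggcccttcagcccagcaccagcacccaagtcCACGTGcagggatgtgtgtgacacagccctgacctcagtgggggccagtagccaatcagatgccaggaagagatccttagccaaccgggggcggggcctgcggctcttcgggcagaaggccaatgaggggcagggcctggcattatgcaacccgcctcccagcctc
Cry1 (chr10:85185055-85185304, minus strand): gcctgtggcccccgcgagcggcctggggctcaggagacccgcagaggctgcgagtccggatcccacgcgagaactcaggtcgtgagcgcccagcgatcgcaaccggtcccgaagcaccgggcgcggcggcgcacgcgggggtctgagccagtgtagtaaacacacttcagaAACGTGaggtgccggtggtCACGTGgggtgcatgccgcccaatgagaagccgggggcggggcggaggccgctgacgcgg
Cry2 (chr2:92434070-92434319, minus strand): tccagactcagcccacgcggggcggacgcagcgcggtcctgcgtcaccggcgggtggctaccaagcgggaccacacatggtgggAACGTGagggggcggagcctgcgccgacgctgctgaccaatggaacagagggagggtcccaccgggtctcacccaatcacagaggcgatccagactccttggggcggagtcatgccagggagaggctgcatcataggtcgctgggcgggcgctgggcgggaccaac
Nr1d1 (chr11:98775378-98775627, minus strand): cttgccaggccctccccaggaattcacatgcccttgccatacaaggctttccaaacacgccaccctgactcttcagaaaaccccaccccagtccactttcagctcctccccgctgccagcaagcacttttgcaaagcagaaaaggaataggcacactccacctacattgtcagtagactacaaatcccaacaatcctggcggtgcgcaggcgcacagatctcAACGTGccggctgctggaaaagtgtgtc
Per3 (chr4:151044666-151044915, minus strand): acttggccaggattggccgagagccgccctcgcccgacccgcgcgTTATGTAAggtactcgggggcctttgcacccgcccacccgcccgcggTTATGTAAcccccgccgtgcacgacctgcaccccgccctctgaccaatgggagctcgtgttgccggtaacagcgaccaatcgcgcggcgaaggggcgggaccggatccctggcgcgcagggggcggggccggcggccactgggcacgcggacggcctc
Ciart (chr3:95882229-95882478, minus strand): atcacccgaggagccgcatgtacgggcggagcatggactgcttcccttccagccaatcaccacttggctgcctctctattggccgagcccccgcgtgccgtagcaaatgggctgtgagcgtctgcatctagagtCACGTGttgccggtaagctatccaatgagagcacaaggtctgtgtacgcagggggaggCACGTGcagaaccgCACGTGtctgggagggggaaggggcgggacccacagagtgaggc
Per1 has 2 annotated starts, and the E-box begins 166 bases upstream of the one printed. That stretch lies within the gene span given below, and the other Per1 window had no E-box. In Cry1 the E'-box and E-box lie 79 and 60 bases upstream, and in Cry2 and Nr1d1 the E'-box lies 166 and 28 bases upstream. Per3 has D-boxes 205 and 158 bases upstream, and Ciart has E-boxes 116, 58 and 44 bases upstream. The RRE of Arntl begins at base 27 after the second of its 2 annotated starts and is shown in capitals.
Arntl (chr7:113207528-113207557, plus strand): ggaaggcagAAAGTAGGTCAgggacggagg
A match describes letters in the window and does not show binding.

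**Figure D2:**
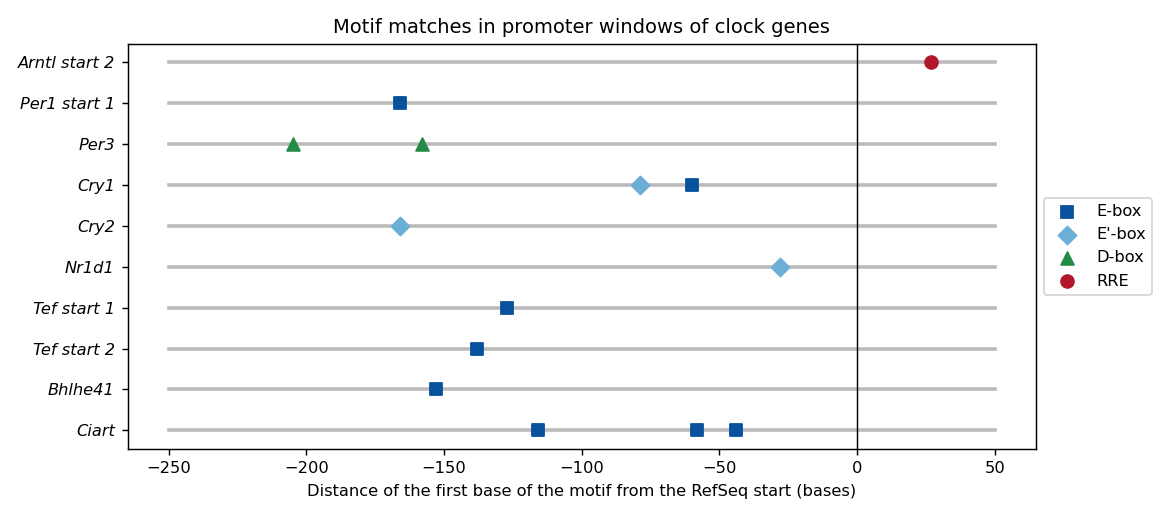
First base of each E-box, E'-box, D-box and RRE match (symbols) in windows of clock genes, by distance in bases from the RefSeq start (horizontal axis, 0 marks the start and negative values are upstream). The 3 E-boxes of Ciart lie within 116 bases of its start, and the RRE of Arntl lies at base 27, downstream of it.

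The activators come first. Arntl, which encodes BMAL1 (ENSMUSG00000055116, chromosome 7 from 113207465 to 113314126, GRCm38), had 16.5, 14.8 and 15.8 CPM at 72 h and 15.7, 16.3 and 13.5 CPM at 24 h, against 11.2, 9.10 and 12.2 CPM in controls. All 6 DPI libraries lay above all 3 controls, and both DPI groups overlapped each other. It rose by 0.54 ± 0.13 on the log2 scale at 72 h (SE, n = 3 libraries a group, edgeR adjusted p = 0.024) and by 0.49 ± 0.13 at 24 h (edgeR adjusted p = 0.017). The 72 h call was lost without DPI 72 h replicate 1 or 3 (edgeR adjusted p = 0.088 and 0.074), and the 24 h call without DPI 24 h replicate 1 or 2 (edgeR adjusted p = 0.060 and 0.070). Without control replicate 2 the rises were 0.43 and 0.38, and both passed. An antisense gene shares 33 exonic bases with Arntl and had at most 1 count.

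Clock (ENSMUSG00000029238, chromosome 5 from 76209868 to 76304792) encodes the partner of BMAL1 and was the most abundant of the 10. It had 163, 179 and 170 CPM at 72 h and 177, 170 and 169 CPM at 24 h, against 168, 108 and 169 CPM in controls. The DPI libraries and controls 1 and 3 fell within one narrow range, and control replicate 2 was far below it. Its log2 change was 0.20 ± 0.14 at 72 h and 0.21 ± 0.14 at 24 h (SE, edgeR adjusted p = 0.44 and 0.30), and without control replicate 2 it was 0.02 and 0.03.

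The repressor of Arntl was also higher. Nr1d1 (ENSMUSG00000020889, chromosome 11 from 98767932 to 98775333), a nuclear receptor that binds haem, had 20.6, 19.52 and 21.2 CPM at 72 h and 19.51, 17.4 and 18.9 CPM at 24 h, against 14.96, 14.1 and 15.2 CPM in controls. The 3 groups did not overlap, although the lowest 72 h and the highest 24 h library were almost equal. It rose by 0.47 ± 0.09 at 72 h (SE, edgeR adjusted p = 0.0054), a call kept in all 16 other settings. At 24 h it rose by 0.33 ± 0.09 (SE, edgeR adjusted p = 0.016), and lost the call without DPI 24 h replicate 1 or 3 (edgeR adjusted p = 0.063 and 0.057). The difference between 72 h and 24 h, 0.14 ± 0.08, did not pass (edgeR adjusted p = 0.30). Nr1d1 shares 263 exonic bases with Thra, a thyroid hormone receptor gene on the opposite strand. The strand setting of the counting was not given in the sources used here, so reads in those bases cannot be told apart. Thra had 47.2 ± 2.42 CPM at 72 h and 34.0 ± 2.31 CPM at 24 h, against 41.3 ± 1.86 CPM in controls (SD, n = 3), so at 24 h it was lower (-0.28 on the log2 scale, edgeR adjusted p = 0.020) where Nr1d1 was higher. At 72 h its log2 change was 0.19, in the direction of Nr1d1 and without overlap between the groups, and it did not pass (edgeR adjusted p = 0.15). Thra was higher at 72 h than at 24 h (0.47, edgeR adjusted p = 0.0012), where the difference of Nr1d1 did not pass.

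Among the period genes, which encode the scaffold of the repressor complex, Per1 and Per2 fell at 24 h. Per1 (ENSMUSG00000020893, chromosome 11 from 69095217 to 69109960) had 38.0, 36.3 and 35.1 CPM at 72 h and 29.7, 28.4 and 26.2 CPM at 24 h, against 34.7, 31.6 and 37.0 CPM in controls. The 24 h libraries lay below all others, and the 72 h libraries overlapped the controls. It fell by 0.29 ± 0.08 on the log2 scale at 24 h (SE, edgeR adjusted p = 0.023), and the call was lost without control replicate 3 or DPI 24 h replicate 2 or 3 (edgeR adjusted p = 0.069, 0.057 and 0.089). Against 24 h it was higher at 72 h by 0.37 ± 0.08 (SE, edgeR adjusted p = 0.0074), in all 16 other settings as well.

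Per2 (ENSMUSG00000055866, chromosome 1 from 91415982 to 91459324) had 9.96, 9.82 and 9.29 CPM at 72 h and 5.69, 5.48 and 5.86 CPM at 24 h, against 9.89, 7.17 and 7.67 CPM in controls. The 24 h libraries were again the lowest, and control 1 lay among the 72 h libraries while controls 2 and 3 lay between the groups. It fell by 0.54 ± 0.15 at 24 h (SE, edgeR adjusted p = 0.022). This call was lost without control replicate 1 or any DPI 24 h replicate (edgeR adjusted p = 0.074 for control 1, and 0.062, 0.070 and 0.054 for DPI 24 h replicates 1 to 3). The 72 h level was above the 24 h level by 0.77 ± 0.15 (SE, edgeR adjusted p = 0.0036), in all 16 other settings too.

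Per3 (ENSMUSG00000028957, chromosome 4 from 151003652 to 151044665), the period gene least needed for the rhythm in mice, had 23.7, 20.9 and 24.6 CPM at 72 h and 22.4, 20.5 and 18.4 CPM at 24 h, against 24.6, 22.9 and 25.5 CPM in controls. The 24 h libraries lay below the controls and overlapped the 72 h libraries. Its log2 change at 24 h was -0.25 ± 0.10 and did not pass (SE, edgeR adjusted p = 0.083). It passed without control replicate 2 (-0.30, edgeR adjusted p = 0.043), and that was the single setting of 16 in which it did. At 72 h the log2 change was -0.08 ± 0.10 (SE, edgeR adjusted p = 0.71).

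The cryptochromes are the proteins of the loop with an FAD pocket and its strongest repressors, and Cry1 and Cry2 were not tested against each other. Cry1 (ENSMUSG00000020038, chromosome 10 from 85131700 to 85185064) had 26.5, 27.2 and 25.5 CPM at 72 h and 29.1, 29.4 and 30.9 CPM at 24 h, against 30.3, 30.5 and 29.8 CPM in controls. The 24 h libraries overlapped the controls, and the 72 h libraries lay below both other groups. Its log2 change was -0.19 ± 0.07 at 72 h (SE, edgeR adjusted p = 0.10) and -0.02 ± 0.06 at 24 h (SE, edgeR adjusted p = 0.85), and neither passed in any of the 16 other settings.

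Cry2 (ENSMUSG00000068742, chromosome 2 from 92403646 to 92434043) had 27.7, 22.2 and 23.9 CPM at 72 h and 17.4, 15.4 and 15.6 CPM at 24 h, against 23.6, 19.2 and 28.6 CPM in controls. The 24 h libraries lay below all others, and the controls spread widely and enclosed the 72 h libraries. It fell by 0.56 ± 0.14 at 24 h (SE, edgeR adjusted p = 0.014). The call was lost without DPI 24 h replicate 2 or 3 (edgeR adjusted p = 0.056 and 0.052). At 72 h Cry2 was above its 24 h level by 0.61 ± 0.14 (SE, edgeR adjusted p = 0.011), in all 16 other settings as well. A non-coding gene on the opposite strand shares 295 exonic bases with Cry2 and had 2 to 14 counts.

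The output gene Dbp (ENSMUSG00000059824, chromosome 7 from 45705088 to 45710203), whose protein activates D-box genes, had the largest change of the 9 at 24 h. It had 10.1, 8.28 and 6.84 CPM at 72 h and 4.59, 3.72 and 3.83 CPM at 24 h, against 8.08, 7.23 and 8.31 CPM in controls. The 24 h libraries lay far below all others, and the 72 h libraries spread on both sides of the controls. It fell by 0.96 ± 0.18 at 24 h (SE, edgeR adjusted p = 0.0027) and was higher at 72 h than at 24 h by 1.06 ± 0.18 (SE, edgeR adjusted p = 0.0016), both in all 16 other settings. These values rest on 61 to 75 counts per library at 24 h. Dbp shares 539 exonic bases with Sphk2, a sphingosine kinase gene on the opposite strand, in which reads cannot be told apart without the strand setting. Sphk2 had 23.7 ± 0.958 CPM at 72 h and 17.8 ± 1.48 CPM at 24 h, against 27.6 ± 2.85 CPM in controls (SD, n = 3). Like Dbp, it fell at 24 h (log2 change -0.64, edgeR adjusted p = 7.8e-04). It was also higher at 72 h than at 24 h (0.42, edgeR adjusted p = 0.011). At 72 h against control its log2 change was -0.22 and did not pass (edgeR adjusted p = 0.19). The part of Sphk2 reads in the Dbp values was not tested.

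**Figure D3:**
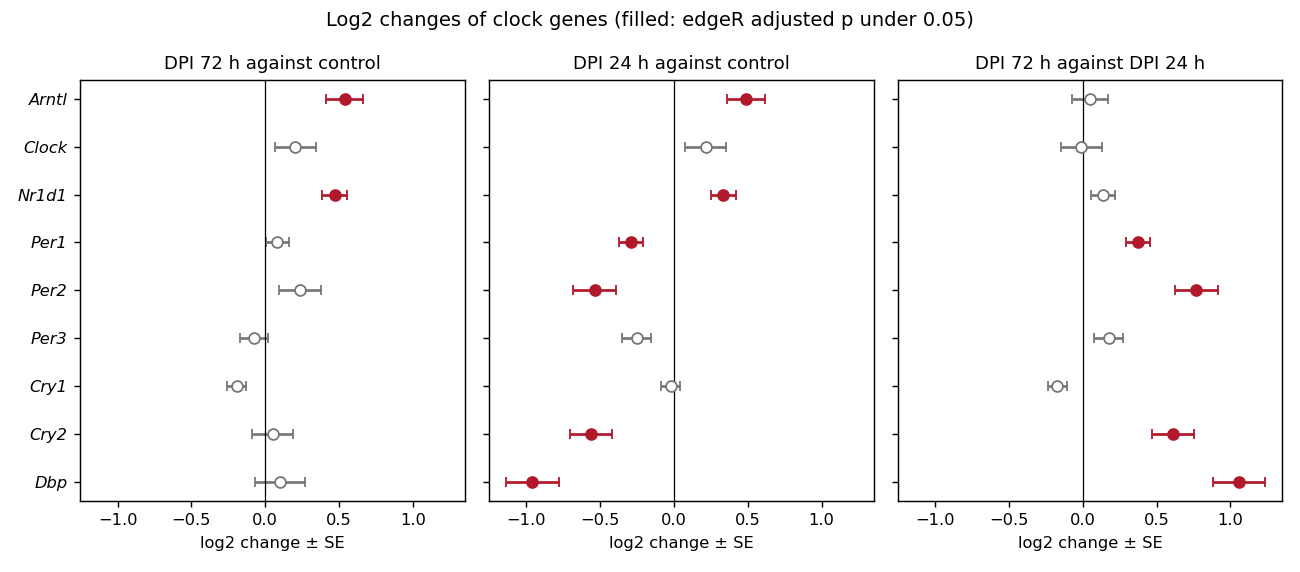
Log2 change (horizontal axis) of the 9 tested clock genes with SE bars, for DPI 72 h against control, DPI 24 h against control, and DPI 72 h against DPI 24 h. Filled points passed at an edgeR adjusted p under 0.05: 2 genes at 72 h, 6 at 24 h, and 4 between 72 h and 24 h.

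Tested over the 3 groups at once, 6 of the 9 genes passed, beside 28.5% of all genes, with the smallest edgeR adjusted p for Dbp (0.0022), followed by Nr1d1 (0.0049), Per2 (0.0069), Per1 (0.012), Cry2 (0.014) and Arntl (0.015). Cry1, Per3 and Clock had 0.075, 0.15 and 0.41. The groups did not overlap for 3 of the 9 genes at 72 h against control, beside 27.1% of all genes, for 7 at 24 h against control, beside 40.5%, and for 6 at 72 h against 24 h, beside 46.2%. The comparisons with control share the control libraries and are given side by side without any measure of likeness between them. The number of clock genes called at 24 h changed with the libraries kept. It was 3, 2 and 2 without DPI 24 h replicates 1, 2 and 3. All genes called also dropped, to 2473, 2388 and 2351, against 3478 with all libraries. At 72 h the count was 1 without DPI 72 h replicate 1 or 3. The 4 genes higher at 72 h than at 24 h kept their calls with each of the 9 libraries left out in turn.

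Set against exonic length, Clock was the most abundant clock mRNA in each group, with 12.4 ± 0.604 CPM per kilobase of exon at 72 h and 12.5 ± 0.316 at 24 h, against 10.8 ± 2.55 in controls (SD, n = 3). Cry1 followed, with 7.90 ± 0.258 at 72 h and 8.91 ± 0.296 at 24 h, against 9.05 ± 0.109 in controls, and in controls its range overlapped that of Clock. Next came Nr1d1 at 6.65 ± 0.281 and Per1 at 6.47 ± 0.256 at 72 h, with overlapping ranges. At 24 h they stood at 6.05 ± 0.349 and 4.99 ± 0.311 without overlap. In controls the order was the other way, with 6.12 ± 0.489 for Per1 and 4.80 ± 0.187 for Nr1d1, also without overlap. Cry2 held the fifth place in every group. Dbp and Per3 overlapped at 72 h and in controls, but at 24 h Dbp, at 1.35 ± 0.158, had dropped below Per3 and Arntl, which overlapped at 2.13 ± 0.209 and 2.02 ± 0.200. Per2 held the ninth place in every group, with 1.65 ± 0.061 at 72 h and 0.970 ± 0.033 at 24 h, against 1.41 ± 0.247 in controls, where it overlapped Arntl. Npas2 was lowest, with at most 0.607 CPM before division by length.

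**Figure D4:**
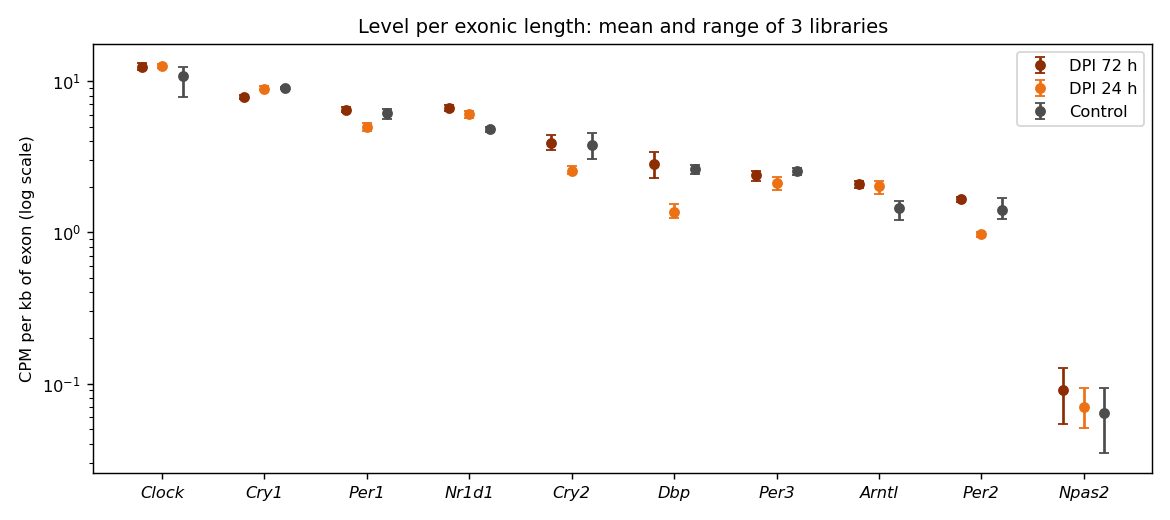
Level per kilobase of exon (vertical axis, log scale) of the 10 clock genes, ordered by their control mean, for DPI 72 h, DPI 24 h and control. Points are means and bars the range of 3 libraries: Clock is highest, Npas2 lowest, and Dbp stands out by its lower 24 h level.

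For the 4 genes with the smallest p over the 3 groups, the genes most alike were sought among 10411 others with a mean of at least 5 CPM, as the smallest root mean square difference of centred log2(CPM + 1) over the 9 libraries. For Dbp these were Tmem143, Xpot and Gars, with differences of 0.117, 0.118 and 0.133, beside a spread of Dbp itself of 0.428. Xpot, the exporter of tRNA from the nucleus, averaged 436 CPM at 72 h and 247 CPM at 24 h, against 425 CPM in controls, and Gars, the glycyl-tRNA synthetase, had the same low at 24 h. For Nr1d1 they were Ctnnal1, Arsj and Far1 (0.059, 0.060 and 0.063), and for Per2 they were Arhgef3, Zyg11b and Mthfd1l (0.089, 0.096 and 0.101). For Per1 they were Nek4, Inpp5b and Tef (0.047, 0.047 and 0.051), and Tef is itself a clock output factor of the DBP family.

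The other transcription factors of the loop changed in more than one direction. Of 11 listed, 9 were tested. At 72 h, 3 were higher and 2 lower than in controls, beside 4.73% and 3.83% of all genes, with a median log2 change of 0.04. At 24 h, 2 were higher and 4 lower, beside 12.4% and 12.3% of all genes, with a median of -0.23. Between 72 h and 24 h, 4 were higher and 2 lower, beside 10.1% and 11.2% of all genes, with a median of -0.08, where that of all genes was 0.0019.

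Ciart, a repressor known to be induced by BMAL1 and CLOCK, had 22.4, 20.4 and 23.3 CPM at 72 h and 9.11, 8.65 and 10.5 CPM at 24 h, against 16.0, 18.7 and 15.5 CPM in controls. The 3 groups did not overlap. It fell by 0.83 ± 0.11 at 24 h (SE, edgeR adjusted p = 4.6e-04). Its rise of 0.40 ± 0.11 at 72 h (SE, edgeR adjusted p = 0.049) was lost when any 1 library other than control replicate 2 was left out (edgeR adjusted p up to 0.17). Tef, of the DBP family, had 83.2, 79.8 and 77.3 CPM at 72 h and 60.2, 61.7 and 60.2 CPM at 24 h, against 76.9, 73.0 and 83.5 CPM in controls. It fell by 0.36 ± 0.07 at 24 h (SE, edgeR adjusted p = 0.0026) and did not pass at 72 h (0.04 ± 0.06).

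Hlf, the other factor of that family, moved the opposite way. It had 7.53, 7.17 and 9.35 CPM at 72 h and 36.5, 37.9 and 33.8 CPM at 24 h, against 20.5, 14.0 and 16.6 CPM in controls. It was higher than in controls at 24 h by 1.09 ± 0.14 (SE, edgeR adjusted p = 2.4e-04) and lower at 72 h, with -1.08 ± 0.15 (SE, edgeR adjusted p = 9.7e-04). Nfil3, which represses D-box genes, had 36.9, 35.0 and 35.2 CPM at 72 h and 21.3, 21.8 and 20.4 CPM at 24 h, against 28.2, 29.4 and 26.2 CPM in controls. It was lower at 24 h (-0.40 ± 0.07, SE, edgeR adjusted p = 0.0023) and higher at 72 h (0.35 ± 0.07, SE, edgeR adjusted p = 0.0098), the second call being lost without DPI 72 h replicate 1 (edgeR adjusted p = 0.0501).

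Bhlhe40, which encodes the repressor DEC1 that competes for E-boxes and is also known to be induced by hypoxia, had 91.9, 90.0 and 85.8 CPM at 72 h and 123, 124 and 136 CPM at 24 h, against 60.4, 57.0 and 59.8 CPM in controls. It rose at both times, by 0.60 ± 0.06 at 72 h and 1.11 ± 0.06 at 24 h (SE, edgeR adjusted p = 1.6e-04 and 8.5e-07). Arntl2, a paralog of Arntl, averaged 18.5 ± 1.61 CPM at 72 h and 9.71 ± 1.68 CPM at 24 h, against 15.1 ± 1.63 CPM in controls (SD, n = 3). It fell at 24 h (-0.64 ± 0.14, SE, edgeR adjusted p = 0.0079), where Arntl rose, and did not pass at 72 h (0.29 ± 0.14). Nr1d2, the paralog of Nr1d1 and named after its values were seen to complete the count, was lower at 72 h (-0.30 ± 0.07, SE, edgeR adjusted p = 0.025) and did not pass at 24 h (-0.18 ± 0.07).

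**Figure D5:**
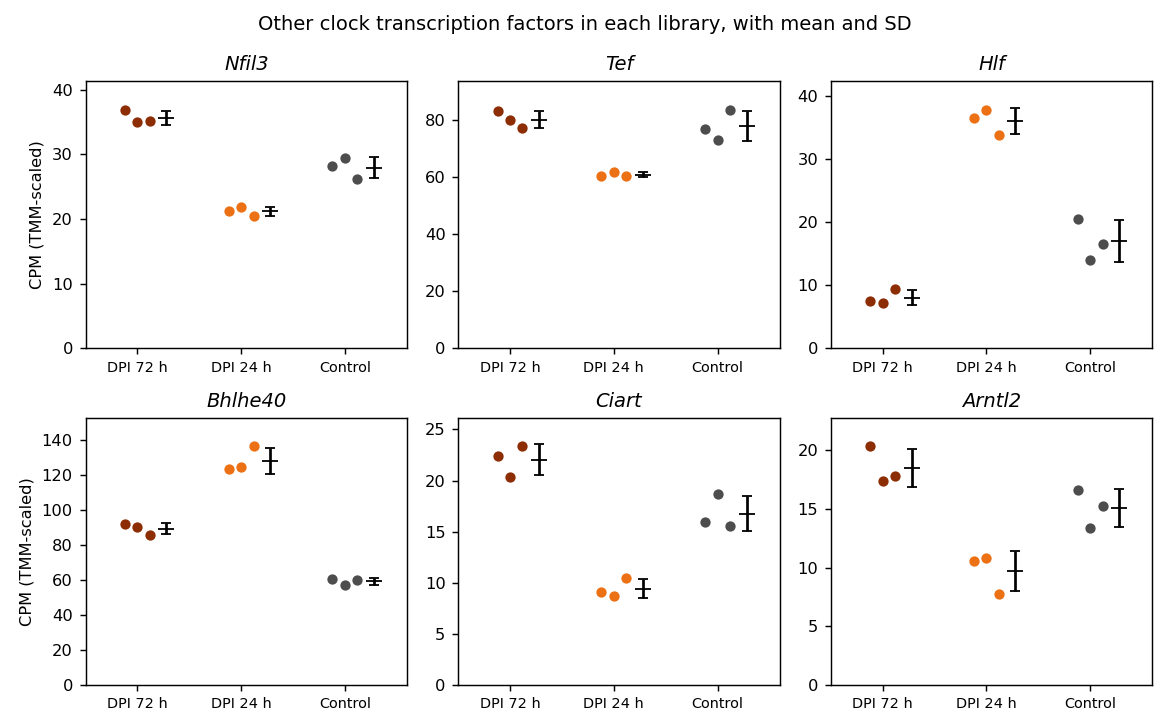
Level in CPM (vertical axis, from 0) of 6 clock transcription factors outside the core list in the 3 libraries of DPI 72 h, DPI 24 h and control (points), with mean and SD beside them. Ciart, Nfil3, Tef and Arntl2 are lowest at 24 h, while Hlf and Bhlhe40 are highest there.

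Of 20 listed genes that act on clock proteins (kinases, ubiquitin ligase subunits and partners) 19 were tested. At 24 h 3 fell and 1 rose, a share near the 24.7% of all genes, with a median log2 change of -0.08. At 72 h 1 rose, beside 4.73% of all genes called higher, with a median of 0.01. Timeless, a replication fork protein related to the fly clock gene of that name, fell at 24 h (93.4 ± 4.97 CPM, against 117 ± 4.54 in controls, SD, n = 3; log2 change -0.32, edgeR adjusted p = 0.0042). Prkaa2, a catalytic subunit of AMPK, which marks cryptochromes for decay, also fell (15.7 ± 1.94 CPM, against 24.1 ± 3.12 in controls, SD, n = 3; log2 change -0.61, edgeR adjusted p = 0.0037). Csnk1a1, a casein kinase, had a log2 change of -0.18 at 24 h and 0.22 at 72 h. Those 2 calls (edgeR adjusted p = 0.035 and 0.030) were lost in 6 and 7 of the 9 fits that left out 1 library, at adjusted p up to 0.12 and 0.11. Usp7, a deubiquitinase of cryptochromes, rose by 0.24 at 24 h (edgeR adjusted p = 0.018), a call lost without DPI 24 h replicate 1 or 2 (edgeR adjusted p = 0.071 and 0.069).

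Of 10 listed clock outputs 7 were tested, and 3 fell and 2 rose at 24 h, beside 24.7% of all genes called, with a median log2 change of -0.26. DESeq2 called 2 of them lower at 24 h. At 72 h 1 rose and 1 fell, beside 8.56% of all genes, with a median of 0.13. Noct, a rhythmic phosphatase of NADPH, averaged 73.2 ± 6.06 CPM at 72 h and 134 ± 2.20 CPM at 24 h, against 66.1 ± 9.004 CPM in controls (SD, n = 3), a rise of 1.02 at 24 h (edgeR adjusted p = 3.2e-05). Por, the flavoprotein reductase of cytochrome P450 enzymes, averaged 83.5 ± 5.70 CPM at 72 h and 139 ± 0.685 CPM at 24 h, against 76.5 ± 3.19 CPM in controls (SD, n = 3), a rise of 0.87 at 24 h (edgeR adjusted p = 5.8e-06). Nampt, the enzyme of NAD salvage that ties the clock to sirtuins, averaged 195 ± 2.80 CPM at 72 h and 158 ± 3.88 CPM at 24 h, against 194 ± 1.45 CPM in controls (SD, n = 3), and fell by 0.30 at 24 h (edgeR adjusted p = 0.0020). Alas1, the first enzyme of haem synthesis, fell by 0.56 on the log2 scale at 72 h (edgeR adjusted p = 0.0023). Its fall of 0.27 at 24 h (edgeR adjusted p = 0.045) was lost by DESeq2 (adjusted p = 0.052), in the fit of only the groups compared (edgeR adjusted p = 0.081) and in 7 of 9 fits that left out 1 library, at adjusted p up to 0.16. A list of 5 genes held Nampt and Nmnat1, which make NAD, and Sirt1, Sirt6 and Parp1, which use it to modify proteins. Nampt alone passed at 24 h, beside 24.7% of all genes, and none passed at 72 h, beside 8.56%. The list's median was 0.03 at 72 h and -0.06 at 24 h.

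Inputs that set fibroblast clocks gave mixed values. Of 12 listed glucocorticoid genes, Per1 among them, 10 were tested. At 72 h 3 were higher (4 by DESeq2 and by limma voom), beside 4.73% of all genes, with a median log2 change of 0.19. At 24 h 4 were higher and 3 lower, beside 12.4% and 12.3% of all genes, also with a median of 0.19. Tsc22d3, a direct target of the receptor, averaged 58.5 ± 2.98 CPM at 72 h and 29.3 ± 2.46 CPM at 24 h, against 42.3 ± 5.50 CPM in controls (SD, n = 3). It fell by 0.53 at 24 h (edgeR adjusted p = 0.0031) and rose by 0.47 at 72 h (edgeR adjusted p = 0.013), the rise being lost without control replicate 3 or DPI 72 h replicate 1 or 3 (edgeR adjusted p = 0.0501, 0.058 and 0.057). Fkbp5, a chaperone of the receptor and its target, fell by 0.39 at 24 h (edgeR adjusted p = 0.0024) and had 0.25 at 72 h (edgeR adjusted p = 0.054). That 72 h value passed without control replicate 2 or 3 (edgeR adjusted p = 0.047 and 0.042), and also by DESeq2 (adjusted p = 0.027), limma voom, RLE scaling and a filter at a mean of 1 CPM. Errfi1 rose by 0.52 at 72 h and 1.26 at 24 h (edgeR adjusted p = 0.011 and 1.4e-05). Nr3c1, the receptor itself, and the metallothionein Mt1 rose at 24 h by 0.44 and 0.58 (edgeR adjusted p = 0.011 and 0.0044). Sgk1, a kinase gene, rose by 0.29 at 72 h and 0.28 at 24 h (edgeR adjusted p = 0.030 and 0.017), calls lost in 6 and 3 of 9 fits that left out 1 library, at adjusted p up to 0.12 and 0.070.

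Of 15 listed genes of the cAMP and CREB pathway, which induces Per1, 14 were tested. At 24 h 3 rose and at 72 h 1 rose, beside 12.4% and 4.73% of all genes called higher, with medians of 0.0015 and -0.03. None was lower by edgeR, while DESeq2 called 1 lower at 72 h and limma voom 1 at 24 h, and at an unadjusted p under 0.05 edgeR had 1 lower at 72 h and 3 at 24 h. Egr1, an immediate early gene, averaged 71.3 ± 12.7 CPM at 72 h and 169 ± 15.8 CPM at 24 h, against 75.0 ± 5.72 CPM in controls (SD, n = 3), a rise of 1.18 at 24 h (edgeR adjusted p = 6.3e-05). Fosl2 rose by 0.53 at 72 h (edgeR adjusted p = 0.0033). The 24 h rises of Fosl2 (0.28) and Fos (0.69) had edgeR adjusted p = 0.040 and 0.045 and were lost in 6 and 7 of 9 fits that left out 1 library, at adjusted p up to 0.13 and 0.14.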

How the data were processed

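Total RNA of mouse adult fibroblasts was made into 9 Illumina libraries and read on a HiSeq instrument, per the labels' protocols. Tools in the submitters' processing notes, listed with no role or version, are STAR, RSEM, edgeR, limma, Trim Galore and cutadapt, and the build is GRCm38. Annotation release and strand setting: not given in the sources used here. The authors deposited raw counts, whole numbers per Ensembl gene, for 53465 genes. A second table, named as normalized, held 17722 of these genes, and all 159498 of its values equalled the raw counts, so it was only compared with the first. Column names matched single sample titles. Symbols, coordinates and exonic lengths came from GENCODE M21 (GRCm38), and 105 IDs had no symbol there.

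Genes passing filterByExpr by group (14088) were scaled by TMM. A quasi-likelihood model with a mean for each of the 3 groups was fitted to all libraries (edgeR 4.0.16 under R 4.3.3, functions glmQLFit and glmQLFTest), and two-sided p-values were Benjamini-Hochberg adjusted across the tested genes, with a threshold of 0.05. The SE was taken from the F statistic (log2 change over its square root). The tested genes held 99.9% of each library's counts. With 3 libraries a group, an exact two-sided permutation test of 1 value cannot go below 0.1, so none was run. Counts limit precision most for Dbp and Per2. The fit was tested on simulated counts of 13818 genes, with 67, 67 and 66 of them changed at 24 h by 1.5-fold, 2-fold and 4-fold. It recovered 71.6% of 1.5-fold, 92.5% of 2-fold and 100% of 4-fold changes, and 6.38% of its calls were unchanged genes. Every simulated gene had the same dispersion, and no library was made unlike the rest, as the second control is here. These rates therefore need not hold for these data.

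The members and all lists were chosen with earlier results of these data known. All 10 members are described. From each of 6 pathway lists at most 6 genes that passed against control were named, by smallest p over the 3 groups, with Per1 left to the members. Nr1d2 was named outside this rule, as were Thra and Sphk2, which share exonic bases with a member. A gene can stand on more than one list: Nampt, Tsc22d3, Per1 and Usp2 do. Alternatives were RLE scaling, DESeq2 1.42.0, limma voom (limma 3.58.1), no filter on low counts, a filter at a mean of 1 CPM, only the 2 groups compared, a replicate block and each library left out.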

Additional observations from a re-analysis of the deposited data

Results flagged for a closer look

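The direct test of 72 h against 24 h in edgeR passed (adjusted p under 0.05) for 21.3% of all genes. By it the DPI effects at 72 h and at 24 h differed for 4 of the 9 tested clock genes and 18 of the 23 other named genes. Those genes are listed here for that reason. The 23 were picked for passing against control and for a small p over the 3 groups, which already covers this difference. Their share is thus no result about the lists. The log2 difference, 72 h minus 24 h, was 1.06 for Dbp, 0.77 for Per2, 0.61 for Cry2 and 0.37 for Per1, with the 72 h level above the 24 h level in all 3 libraries of each group for each of these 4 genes. Among the other clock transcription factors it was 1.23 for Ciart, 0.93 for Arntl2, 0.75 for Nfil3, 0.40 for Tef, -0.52 for Bhlhe40 and -2.17 for Hlf. Hlf, Ciart and Nfil3 passed against control at both times in opposite directions. Among genes that act on clock proteins it was 0.43 for Timeless and 0.40 for Csnk1a1. Among outputs it was 1.0 for Tsc22d3, 0.30 for Nampt, -0.29 for Alas1, -0.74 for Por and -0.87 for Noct. Among the input genes it was 0.64 for Fkbp5, -0.64 for Mt1, -0.75 for Errfi1, -0.95 for Fos and -1.25 for Egr1. The differences of Alas1 and Fos lost their calls in 6 and 2 of the 9 fits that left out 1 library (adjusted p up to 0.16 and 0.054). The test for a single outlying value needs 4 libraries in a group and was not run on groups of 3.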

How the results depend on the processing

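Of 1536 recomputed log2 changes (the 9 tested clock genes and 23 genes named from the lists, in each comparison and alternative, without Nr1d2, Thra and Sphk2), 1408 kept their direction and their side of the threshold, 100 lost and 14 gained a call, and 14 changed sign, none of them while called. The cause of these changes was not tested. Fitting only the 2 groups compared gave 1 clock gene at 72 h, where the fit of all libraries gave 2, and 774 genes in all in place of 1206. For 72 h against 24 h it gave 4660 genes in place of 3001. With no filter on low counts Nr1d1 at 24 h had adjusted p = 0.060. In the fit of only the groups compared, Per1 and Per2 at 24 h and Arntl at 72 h had adjusted p = 0.0503, 0.054 and 0.056, and that fit has fewer libraries. With 1 library left out, called clock genes numbered 2 to 7 at 24 h, 1 to 2 at 72 h and 4 between 72 h and 24 h. All genes called numbered 736 to 1965 at 72 h (the highest without control replicate 2) and 1953 to 4729 between 72 h and 24 h.

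Same-numbered libraries of different groups showed only weak correlations of their deviations from the group means (9 pairs, -0.11 to -0.0044). Pairs with different numbers had -0.11 to 0.12. Deviations from a mean of 3 libraries depend on each other, so these values cannot settle whether the numbers pair the samples. With a replicate block 1 clock gene was called at 72 h, since Arntl had adjusted p = 0.053, and 6 at 24 h.

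Uncalled values that changed sign with 1 library left out had these ranges. For 72 h against 24 h they were -0.024 to 0.11 for Arntl, -0.047 to 0.022 for Clock and -0.011 to 0.059 for Sgk1. For 72 h against control they were -0.084 to 0.20 for Cry2, -0.057 to 0.23 for Dbp, -0.0011 to 0.092 for Tef, -0.0052 to 0.014 for Nampt, -0.18 to 0.046 for Mt1 and -0.18 to 0.063 for Egr1. Depth limits Npas2, at 3 to 10 counts, to a level only.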
